A study of Homo sapiens with 12 samples.

Results

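In BT-20 breast cancer cells, 2 single-stranded oligodeoxynucleotides (ODN 2006 and ODN 2006 CTL) were set against 2 double-stranded DNA oligonucleotides (called M and U here) at the same molar dose. The arrays were chosen by cell line and array batch: of the 12 arrays of the series, 4 are BT-20 arrays of the second batch and belong to this comparison, 1 for each oligonucleotide. BT-20 is an epithelial line from a breast carcinoma, usually classed as negative for hormone receptors and HER2. Cultures received 200 nM of oligonucleotide complexed with the liposomal reagent DOTAP for 24 h, after which total RNA was hybridised to Affymetrix HG-U133 Plus 2.0 arrays. M carries 5-methylcytosine in its CpG dinucleotides and U has the same sequence unmethylated. The series also holds the same 4 treatments in the mesenchymal line Hs578T, and an earlier batch of M and U arrays in both lines, named set 1 in the labels (the double-stranded arrays of the second batch are set 2). Arrays of untreated cells and of cells given only the reagent were not analysed here, so every value is a difference between 2 kinds of DNA and not a response to DNA. The kinds differ in sequence, strand number and length. The reagent was dosed by mass of DNA, so that cultures with the double-stranded oligonucleotides also received more of it. These features, and the cultures themselves (the ODN arrays carry no set number), cannot be told apart.

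Each side joins 2 arrays of different oligonucleotides as its replicates. P-values therefore measure the spread between arrays joined in this way and not between repeat cultures of the same treatment. The number of arrays limits the precision. The main test also holds the Hs578T arrays of the second batch and estimates the spread of a gene over both lines. Each SE and P of a BT-20 difference thus also carries the spread within Hs578T, where arrays of the same side lay further apart by median.

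Unmethylated CpG dinucleotides in single-stranded DNA are the ligand of Toll-like receptor 9, an endosomal receptor of immune cells that signals through MYD88 to NF-kB and interferon regulatory factors. Double-stranded DNA that reaches the cytosol is read by other sensors, among them cGAS with STING, AIM2 and IFI16. Cholesterol synthesis is controlled by the SREBP transcription factors: when sterols in the endoplasmic reticulum are low, SCAP carries SREBP to the Golgi, where it is cut and released to switch on the enzymes of the pathway, and INSIG proteins hold SCAP back when sterols are plentiful. When sterols are plentiful, their oxidised forms instead activate the LXR receptors, which switch on exporters such as ABCA1.

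The sequences of both ODNs are shown because they differ only in the order of C and G in the 4 capitalised dinucleotides, CG in ODN 2006 and GC in its control.
ODN 2006: tCGtCGttttgtCGttttgtCGtt
ODN 2006 CTL: tGCtGCttttgtGCttttgtGCtt
Each is 24 bases long and they differ at 8 positions. The double-stranded oligonucleotides are 30 base pairs long with 4 CpG dinucleotides in each strand.

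Values are log2 signal intensities after GCRMA, a background correction and summary of the probes of 1 probe set, and a difference of 1 on this scale is 2-fold. The median over probe sets was 3.02 to 3.07 in the 4 arrays. Between 33.9% and 34.4% of probe sets lay at 5 or above, which was taken here as the level of clear signal; a probe set below it is called dim. The 4 arrays correlated at 0.996 to 0.998 over probe sets, and none was a copy of another. All 10 epithelial markers checked, among them CDH1, EPCAM, KRT5 and EGFR, lay at 5 or above in each of the 4 arrays, and 3 of 10 mesenchymal markers did so (VIM, COL1A1 and FN1), against 10 of 10 in all Hs578T arrays. None of the 4 leukocyte markers with a probe set reached 5 (PTPRC, CD3E, CD14 and ITGAM lay between 1.73 and 3.19), and of the 2 endothelial markers CDH5 did, at 9.18 to 9.48, while PECAM1 did not.

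Most genes differed little between the kinds of oligonucleotide. Among 10374 genes tested in BT-20 (at least 5 in at least 2 of the 8 second-batch arrays of both lines, which share 1 fit), the median absolute difference between the mean of the ODN arrays and the mean of the double-stranded arrays was 0.10. Single arrays of 1 side differed by a median of 0.12 (ODN 2006 and its control) and 0.10 (M and U), but a mean of 2 arrays varies less than a single array, so these gaps are no test of the difference between sides. Of the genes tested, 913 lay under 5 in all 4 BT-20 arrays and entered through Hs578T alone. With limma and Benjamini-Hochberg adjustment over all genes, 0 genes (0%) passed an adjusted P of 0.05, the smallest being 0.13, and 533 genes (5.14%) had an unadjusted P under 0.05, of which 306 were higher with ODN (2.95%) and 227 lower (2.19%). Fitted to the 4 BT-20 arrays alone, 0 genes passed (smallest adjusted P 0.24 by limma) and 1054 had an unadjusted P under 0.05. Over all 12 arrays with set as a replicate block, 2 genes passed, the uncharacterised LOC100996756 and INSIG1. In that fit each ODN is an arm of 1 array, so the spread comes from M and U across the sets alone (2 residual degrees of freedom), and the SE of LOC100996756 was 0.11 in place of 0.87 although its ODN arrays lay far apart. With set 1 and set 2 joined on the double-stranded side, 8 passed: INSIG1, DHCR7, MSMO1, CHD2, RNF43, MIR570HG and LOC100996756 higher with ODN, and TGM2 lower. With each array centred on housekeeping genes the split at an unadjusted P under 0.05 was 563 higher and 113 lower. Since no gene passed the main test, single genes are described below by their values in each array.

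The sides were apart, meaning that both ODN arrays lay above both double-stranded arrays or both below, for 2243 genes upward (21.6%) and 2107 downward (20.3%). By the stricter rule of sides apart and means at least 2-fold apart, 33 genes were higher with ODN (0.318%) and 15 were lower (0.145%), and with values under 5 raised to 5 these counts were 21 and 2. The set 1 arrays, which took no part in the rule, come from another batch, and their median absolute gap to set 2 was 0.21 for M and 0.18 for U. For 27 of the 33 higher genes both set 1 arrays also lay below both ODN arrays, and for 6 they did not. Of all 2243 genes with the sides apart upward, 1224 had both set 1 arrays below both ODN arrays. The ODN values that picked the genes enter these counts too, so the counts are no independent check. For 12 of the 15 lower genes both set 1 arrays lay above both ODN arrays.

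**Figure D1:**
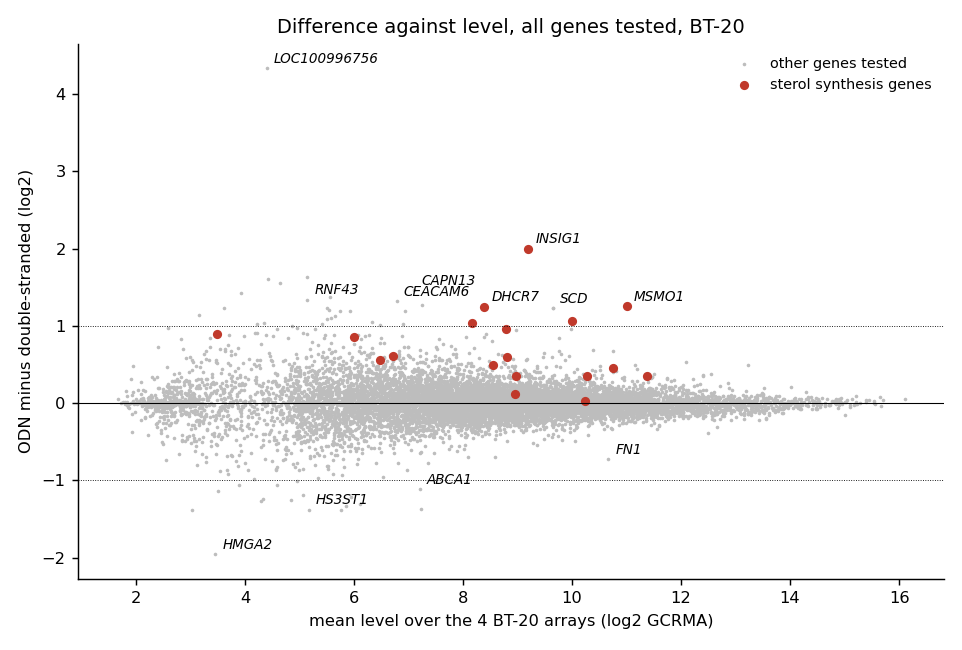
Each point is 1 of 10374 genes tested, with its mean log2 level over the 4 BT-20 arrays on the horizontal axis and the mean of the 2 ODN arrays minus the mean of the 2 double-stranded arrays on the vertical axis. Dotted lines mark a 2-fold difference. The 18 sterol synthesis genes, in red, all lie above 0, and INSIG1 at 2.00 stands clear of genes of similar level, while ABCA1 at -1.11 lies among the few genes below the lower line.

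Genes of cholesterol synthesis were higher with ODN as a group. The list holds 25 genes, of which 19 had a probe set analysed here and 18 were tested. All 18 had a positive difference and 13 had an unadjusted P under 0.05 (over all genes, 2.95% were higher at that P). Among the 13, STARD4 was dim in BT-20 and was tested only because of its level in Hs578T. Over the 17 genes with a mean of 5 or above in the 4 BT-20 arrays, a rule added after seeing the data, all had a positive difference, 12 had such a P (2.9% of all genes at that level) and 16 had the sides apart upward (22.4%), with a median of 0.59. In 17 both ODN arrays lay above both double-stranded arrays, against 21.6% of all genes. Their median difference was 0.60, against 0.00 over all genes. The median over the list, taken as each gene's deviation from its own mean, was 0.26 with ODN 2006 and 0.42 with its control, against -0.35 with M and -0.30 with U. Both ODN arrays, with and without CpG, thus lay on the same side. In the set 1 arrays of the other batch the list stood at -0.31 for M and -0.22 for U. At the 1 probe set used per gene, both set 1 arrays lay below both ODN arrays in all 18. Of all 2243 genes with the sides apart upward, 1224 had that order. At another LSS probe set, set 1 (7.28 and 7.26) lay above ODN 2006 (7.25). At another of EBP, U of set 1 (9.93) lay above ODN 2006 CTL (9.92). A dim SQLE probe set also broke the order. The list was drawn up with earlier results of these arrays known, so that its direction is a description. At the level of probe sets, 32 of the 33 tested for these genes were higher with ODN and 23 had an unadjusted P under 0.05, against 3.44% of all probe sets tested. The exception was a dim probe set of SQLE, at 2.75 to 3.02 in the 4 arrays.

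INSIG1, the protein that retains SCAP in the endoplasmic reticulum and is itself an SREBP target, had the largest difference of the list. It measured 9.95 with ODN 2006 and 10.43 with ODN 2006 CTL, against 8.15 with M and 8.24 with U. Both ODN arrays thus lay far above all double-stranded arrays, the set 1 arrays included (8.17 and 8.42). The difference was 2.00 ± 0.22 (SE), or 3.99-fold (limma, adjusted P = 0.149), and the other 2 probe sets of INSIG1 gave 1.45 and 1.92. SREBF2, which encodes the SREBP that chiefly drives this pathway, measured 6.60 and 6.94 with the ODNs and 6.10 and 6.31 with M and U. Its difference was 0.56 ± 0.25 (SE) with the sides apart, and its other probe sets gave 0.44 and 0.84. SCAP, the escort protein, was nearly level (7.88 and 7.97 with the ODNs, 8.09 and 7.96 with M and U).

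Among the enzymes that lead to the first isoprenoid units, HMGCS1, which makes HMG-CoA, measured 8.58 and 8.81 with the ODNs and 7.72 and 7.59 with M and U, a difference of 1.04 ± 0.34 (SE). MVK, mevalonate kinase, stood at 6.93 and 7.09 against 6.41 and 6.40. MVD, which decarboxylates mevalonate diphosphate, stood at 6.39 and 6.49 against 5.36 and 5.79. In these 3 enzymes no double-stranded array reached either ODN array, although the separation was smallest for MVK. ACAT2, which makes acetoacetyl-CoA, was apart by less (10.37 and 10.55 against 10.12 and 10.09). PMVK, the kinase that follows MVK, was nearly level, with values between 8.82 and 9.03 in the 4 arrays.

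IDI1, which interconverts the isoprenoid units, measured 10.53 and 10.52 with the ODNs and 9.36 and 9.57 with M and U. The 2 ODN arrays were nearly identical and lay 1.06 ± 0.22 (SE) above the double-stranded mean (limma, adjusted P = 0.372). Of the 4 IDI1 probe sets 2 passed the filter on dim values, and both of these are of the type that Affymetrix marks as possibly matching other transcripts. FDPS, which builds farnesyl diphosphate, had a probe set among those of highest signal in the list. Its 11.52 and 11.57 with the ODNs exceeded the 11.17 and 11.21 with M and U by 0.35. SQLE, squalene epoxidase, measured 9.16 and 9.37 against 8.21 and 8.39, a difference of 0.96 ± 0.21 (SE). LSS, which closes the sterol rings, measured 9.09 and 9.13 against 8.51 and 8.52. For SQLE and LSS the set 1 arrays (8.65 to 8.75 and 8.77 to 8.82) lay between the set 2 arrays and the ODN arrays.

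In the late steps from lanosterol to cholesterol, MSMO1, which removes sterol methyl groups, measured 11.55 and 11.71 with the ODNs and 10.48 and 10.28 with M and U, with set 1 at 10.54 and 10.62. Its difference was 1.25 ± 0.20 (SE), or 2.38-fold (limma, adjusted P = 0.313). DHCR7, the reductase of the last step, measured 9.03 and 9.01 against 7.76 and 7.77. Within each side its arrays were nearly identical, and the difference was likewise 2.38-fold (limma, adjusted P = 0.311). HSD17B7 and SC5D, a reductase and a desaturase of the same stretch, had smaller differences of 0.50 and 0.46 with the sides apart. NSDHL, a dehydrogenase that works with MSMO1, had a difference of 0.36, and the 2 ODN arrays themselves lay apart (9.27 and 9.02). EBP, the sterol isomerase, was the 1 gene of the 18 whose sides overlapped, with values from 10.20 to 10.27 in all 4 arrays. STARD4, a carrier of sterols between membranes, was dim in every array (3.50 and 4.36 with the ODNs, 3.05 and 3.01 with M and U). TM7SF2, another sterol reductase, was not tested because its level was below 5 (4.90 and 4.26 with the ODNs, 3.53 and 4.30 with M and U).

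**Figure D2:**
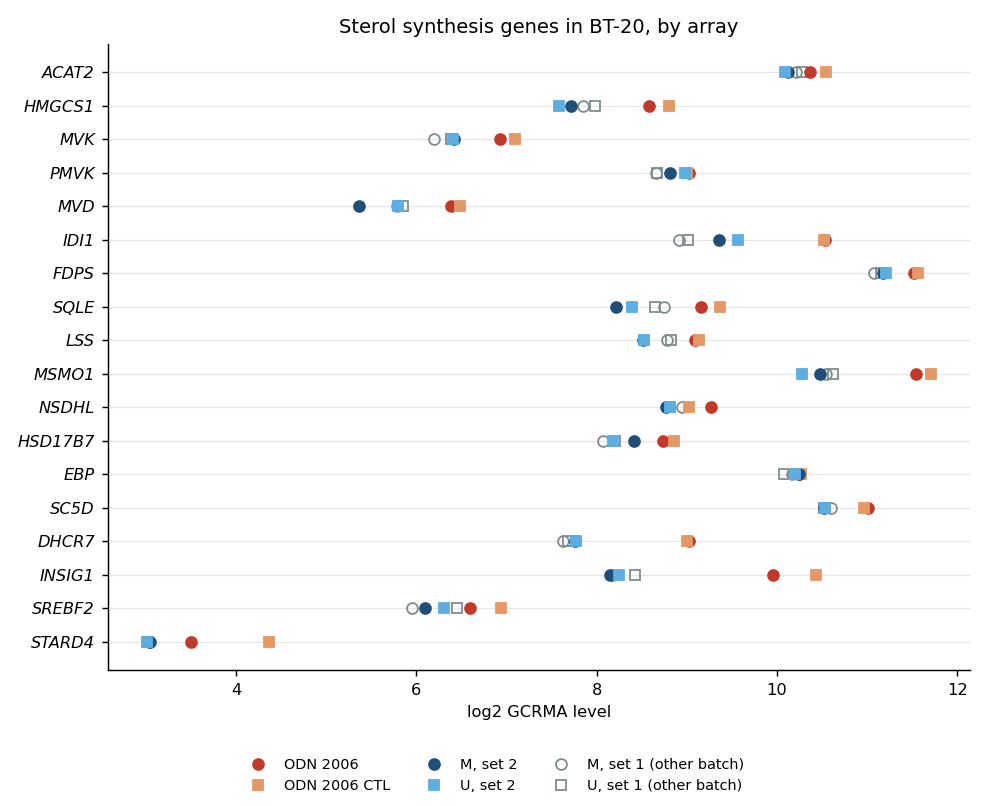
The log2 GCRMA level of the 18 sterol synthesis genes tested is plotted by array, 1 gene a row in pathway order with the regulators INSIG1 and SREBF2 and the carrier STARD4 last. Filled red and orange symbols are the 2 ODN arrays, filled blue symbols the M and U arrays of set 2, and open grey symbols the set 1 arrays of the other batch. In 17 rows the ODN symbols lie to the right of the blue ones, with the widest gap in INSIG1, and EBP is the exception.

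The proximal promoters of 5 of these genes are given because the transcripts differed in the same direction across the arrays. INSIG1, DHCR7, MSMO1 and IDI1 had the smallest unadjusted P of the list, and SREBF2 was added to them. They are stretches of 120 bases upstream of the RefSeq gene start in GRCh38.p14, written along the strand of the gene. Within 250 bases before the start, each stretch was placed where it held the most marked letters. It spans bases 170 to 51 before the start in INSIG1, 120 to 1 in DHCR7 and 140 to 21 in MSMO1, IDI1 and SREBF2. Capitals mark CCAAT or its reverse complement ATTGG, the core letters bound by NF-Y, a known partner of SREBP, and TCACNCCAC, a form of the sterol regulatory element, searched on both strands. Overlapping matches of CCAAT and ATTGG, as in IDI1, were counted singly.
INSIG1, chr7:155297708-155297827, plus strand: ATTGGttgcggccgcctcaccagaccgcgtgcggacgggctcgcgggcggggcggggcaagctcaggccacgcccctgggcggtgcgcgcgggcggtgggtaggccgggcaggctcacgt
DHCR7, chr11:71448394-71448513, minus strand: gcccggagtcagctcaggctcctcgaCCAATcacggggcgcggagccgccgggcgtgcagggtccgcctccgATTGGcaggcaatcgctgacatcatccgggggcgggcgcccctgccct
MSMO1, chr4:165327529-165327648, plus strand: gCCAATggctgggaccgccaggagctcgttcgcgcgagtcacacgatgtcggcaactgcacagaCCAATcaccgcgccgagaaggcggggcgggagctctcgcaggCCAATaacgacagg
IDI1, chr10:1048907-1049026, minus strand: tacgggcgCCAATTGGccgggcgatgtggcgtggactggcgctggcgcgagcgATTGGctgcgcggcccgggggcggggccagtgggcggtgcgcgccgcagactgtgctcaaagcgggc
SREBF2, chr22:41832965-41833084, plus strand: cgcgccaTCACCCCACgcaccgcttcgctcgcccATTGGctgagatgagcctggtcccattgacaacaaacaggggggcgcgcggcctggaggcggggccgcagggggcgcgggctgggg
The stretch of MSMO1 and that of IDI1 hold 3 matches to the CCAAT letters, DHCR7 holds 2, and INSIG1 and SREBF2 hold 1 each. Because the stretches were placed by their matches, these counts only describe what is shown. Over windows from 250 bases before to 50 after the start, 15 of the 16 sterol genes with a window held CCAAT on either strand (PMVK did not), against 44.1% of 8576 tested genes with a window and 39.7% of all 27305 genes. The letters TCACNCCAC were found in 1 of the 16, SREBF2, against 1.39% of all genes. A match of letters describes the sequence and shows no binding.

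Other lipid genes were mixed. On a list of 19 tested genes of fatty acid synthesis and lipid storage, 11 were higher and 8 lower with ODN, with a median of 0.04. 2 genes had an unadjusted P under 0.05 in each direction (over all genes 2.95% higher and 2.19% lower). SCD, the stearoyl-CoA desaturase, measured 10.15 and 10.38 with the ODNs against 9.11 and 8.96 with M and U, a difference of 1.23 ± 0.29 (SE). Its set 1 values were far lower still (6.76 and 8.03), so that this transcript also differed strongly between batches. LPIN1, which makes diacylglycerol, measured 7.23 and 7.84 against 6.35 and 6.34, with set 1 between them (6.99 and 6.91). ACACA and FASN, the core enzymes of fatty acid synthesis, differed by 0.38 ± 0.18 and 0.34 ± 0.16 (SE) with the sides apart, although the U array of set 1 exceeded 1 ODN array for FASN (9.01). The triglyceride-forming enzymes lay on the other side against set 2: DGAT2 measured 5.65 and 5.80 with the ODNs against 6.10 and 6.12, but set 1 stood at 5.48 and 5.87, level with the ODN arrays. DGAT1 stood at 4.53 and 3.74 against 4.86 and 5.12, dim in 3 of the 4 arrays, and with values under 5 raised to 5 its difference was -0.06 in place of -0.85.

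ABCA1, the exporter that loads cholesterol onto apolipoprotein, was lower with ODN. It measured 6.53 with ODN 2006 and 6.77 with its control, against 7.75 with M and 7.78 with U. Both ODN arrays lay below every double-stranded array of this line, including those of set 1 (7.26 and 7.79). The difference was -1.11 ± 0.11 (SE), or 2.16-fold lower (limma, adjusted P = 0.130), the smallest adjusted P together with that of RNF43. Other LXR targets were looked up after this value was seen. MYLIP, a ubiquitin ligase for lipoprotein receptors, measured 9.96 and 10.24 against 10.49 and 10.52, a difference of -0.41 ± 0.22 (SE), but its set 1 values (9.49 and 10.00) lay on the ODN side. LPCAT3, a phospholipid acyltransferase, was nearly level (0.11), and ABCG1 and the receptor gene NR1H3 were dim in all 4 arrays. SREBF1, which encodes another SREBP and was added too, lay the other way from ABCA1. It measured 7.70 and 7.96 with the ODNs against 7.31 and 7.46, and set 1 was lower still (5.55 and 6.25).

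Outside the lipid lists, the higher genes with the smallest P-values began with RNF43. RNF43, a ubiquitin ligase that clears Wnt receptors from the cell surface, measured 5.77 and 5.84 with the ODNs against 4.28 and 4.66 with M and U, a difference of 1.34 ± 0.14 (SE) with an adjusted P of 0.130 by limma. The double-stranded side was dim, and with values under 5 raised to 5 the difference was 0.81. ILDR1, a protein of tricellular junctions, measured 7.74 and 8.03 against 6.78 and 6.45. CEACAM6, an adhesion molecule of the carcinoembryonic antigen family, measured 7.55 and 7.33 against 6.03 and 6.21. CAPN13, a calpain, measured 7.89 and 7.78 against 6.67 and 6.08, and MUCL1, a small mucin of breast epithelium, 8.84 and 8.88 against 8.10 and 7.84. In all 5 genes the set 1 arrays lay below both ODN arrays as well. For 3 of them the gap to set 1 was much wider than the gap to set 2: set 1 stood at 3.38 and 3.49 for CEACAM6, at 4.38 and 5.68 for CAPN13 and at 2.58 and 3.50 for MUCL1. The part of the cultures in these 3 differences was not tested.

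Further genes with clear separation in this direction were CHD2 and RASSF1. CHD2, a chromatin remodeller, measured 10.15 and 10.37 with the ODNs against 9.21 and 8.86 with M and U, with set 1 at 9.12 and 8.76. RASSF1, a tumour suppressor that binds Ras-like proteins, measured 7.42 and 7.41 against 6.44 and 6.34. Their differences were 1.23 ± 0.18 (SE) and 1.03 ± 0.13 (SE). MIR570HG, a noncoding host transcript of a microRNA, was higher by 0.89 and the pseudogene ZNF300P1 by 1.01. For ZNF300P1 the set 1 values (6.65 and 6.34) lay between set 2 (5.85 and 6.10) and the ODN arrays (6.78 and 7.19). GCNA, a germ cell nuclear protein, measured 5.58 and 6.33 against 4.33 and 4.29. Its double-stranded side was dim, and with values under 5 raised to 5 the difference was 0.95 in place of 1.64. LOC100996756 had the largest difference of any gene, 4.33 ± 0.87 (SE), but the 2 ODN arrays were far from each other: 7.67 with ODN 2006 and 5.45 with its control, against 2.23 in both M and U and no more than 2.15 in set 1. The double-stranded values were at the floor of the array, and with values under 5 raised to 5 the difference was 1.56.

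Among the transcripts lower with ODN, HS3ST1, FN1 and TGM2 lay on the same side of both sets. HS3ST1, a heparan sulfate sulfotransferase, measured 4.29 and 4.67 with the ODNs against 6.12 and 5.60 with M and U, and its set 1 values of 6.97 and 6.43 lay still higher. FN1, fibronectin, measured 10.18 and 10.43 against 11.02 and 11.04, with set 1 at 12.37 and 12.87. TGM2, a transglutaminase that cross-links matrix proteins, measured 5.96 and 6.09 against 6.82 and 6.77. The differences were -1.38 ± 0.20 (SE), -0.73 ± 0.13 (SE) and -0.77 ± 0.14 (SE), and in all 3 genes no ODN array reached a double-stranded array of either set. Both ODN values of HS3ST1 were dim, and with values under 5 raised to 5 its difference was -0.86. GPC4, a glypican, was lower by 0.55 against set 2, but its set 1 values (5.68 and 5.74) lay close to its ODN values (5.66 and 5.69). HSD3B1, a dehydrogenase of steroid hormone synthesis, measured 8.32 and 8.17 against 8.92 and 8.96, and MON1A, which acts in endosome maturation, 4.31 and 4.63 against 5.85 and 5.47. NAF1, an assembly factor of telomerase RNA, stood at 7.62 and 7.84 against 8.48 and 8.40.

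**Figure D3:**
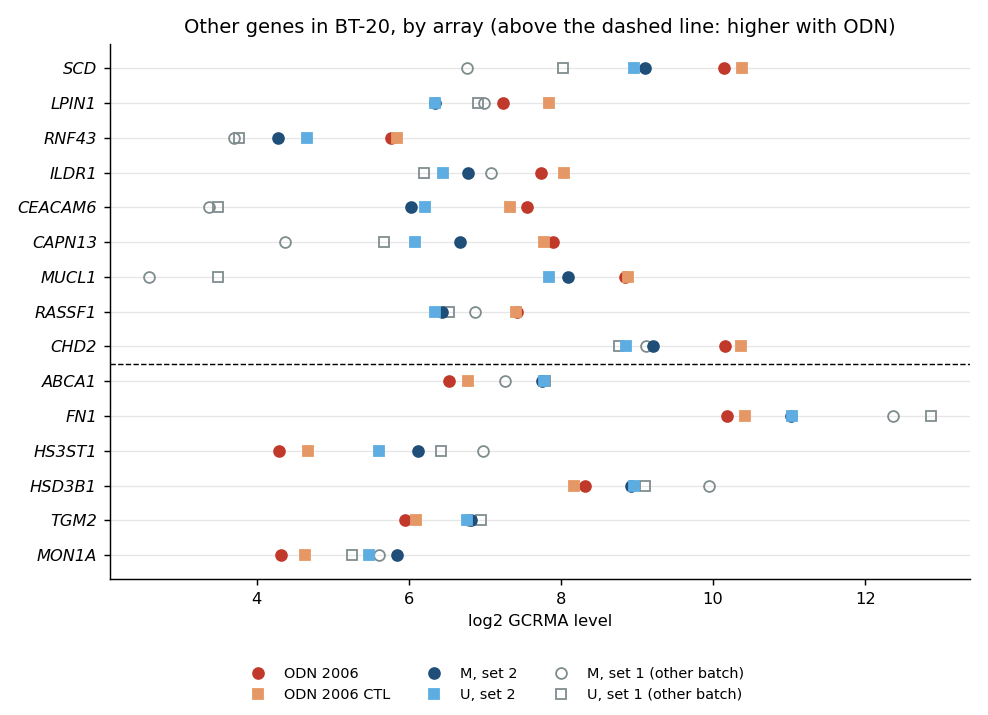
The log2 GCRMA level of 15 further genes is plotted by array, with symbols as in the plot of sterol genes: 9 genes higher with ODN stand above the dashed line and 6 lower below it. The sides of the second batch do not overlap in any row. The open grey symbols of set 1 lie far from set 2 in SCD, CEACAM6, CAPN13, MUCL1 and FN1, in each case on the side away from the ODN arrays.

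The 2 ODNs differed in some genes. Between ODN 2006 and its control 137 genes differed by 2-fold or more (1.32%), against 71 between M and U of set 2 and 183 between M and U of set 1, with 1 array each and hence no test. Among genes counted as lower by 2-fold, IGFL1, a small secreted protein, measured 5.93 with ODN 2006 and 4.19 with the control, against 6.35 and 6.54 with M and U. EFNA3, an ephrin, showed the same order (6.30 and 4.63, against 6.99 and 6.55), but its set 1 values (4.89 and 4.70) lay low, below ODN 2006, while TMA16, which acts in ribosome assembly, had its low value with ODN 2006 (4.47, and 6.21 with the control, against 6.59 and 6.52). In these 3 genes 1 of the 2 ODN arrays sat near the double-stranded arrays and the other carried the difference.

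Receptors and sensors of DNA were examined whatever their values. TLR9 lay between 2.32 and 2.34 in all 4 arrays, at the floor, and CGAS between 4.08 and 4.23. MYD88, the adaptor of TLR9, was well above it, at 9.55 and 9.59 with the ODNs and 9.58 and 9.67 with M and U. STING1 measured 4.62 and 5.46 against 4.74 and 5.00, AIM2 5.79 and 4.24 against 4.22 and 5.88, IFI16 7.34 and 7.57 against 7.41 and 7.13, and IRF7 6.18 and 5.82 against 6.34 and 6.19. The sides overlapped in MYD88, STING1, AIM2 and IFI16, and AIM2 varied by more within each side than between them. On the list of TLR9 and cytosolic DNA sensing, 12 of 21 tested genes were higher and 9 lower, with a median of 0.02. An unadjusted P under 0.05 was found for 1 gene, IRF5, 0.37 higher with ODN (2.95% of all genes were higher at that P).

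Interferon-stimulated and inflammatory genes differed by small amounts. Of 26 interferon-stimulated genes tested, 16 were higher and 10 lower with ODN, with a median of 0.09; 8 had the sides apart upward and 3 downward (over all genes 21.6% and 20.3%). Their median deviation was 0.02 with ODN 2006 and 0.10 with its control, against -0.04 with M and -0.02 with U, but set 1 stood at -0.37 and -0.03. GBP1, a guanylate-binding protein, was the 1 with an unadjusted P under 0.05 (2.95% of all genes were higher at that P). It measured 8.06 and 8.36 with the ODNs against 7.43 and 7.59 with M and U, but 9.69 and 8.98 in set 1, above both ODN arrays. The interferon gene IFNB1 and the chemokine CXCL10 were at the floor, between 2.11 and 2.44. Of 15 cytokine and chemokine genes tested 7 were higher and 8 lower, with a median of 0.00 and no unadjusted P under 0.05. On the NF-kB list 9 genes were higher and 10 lower. NFKBIZ, a nuclear regulator of NF-kB targets, measured 10.04 and 10.31 against 9.44 and 9.23. Its set 1 values were far lower (7.03 and 8.13), so that NFKBIZ also differed strongly between batches. NFKBIE, an inhibitor, was lower by 0.37. NFKBIA, the classical inhibitor, differed by 0.29 ± 0.18 (SE). The signs of the medians of these 4 innate lists changed between ways of processing the arrays and are not read as directions.

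Genes that handle DNA and its methylation were examined because M carries methylated CpG and U does not. The methyltransferases were level across the oligonucleotides: DNMT1, which copies methylation after replication, lay between 11.23 and 11.29 in the 4 arrays, and DNMT3A and DNMT3B, which set it anew, between 6.57 and 6.79 and between 6.07 and 6.26. Of 24 genes that write, erase or read DNA methylation 16 were higher and 8 lower with ODN, with a median of 0.03 and no unadjusted P under 0.05. Of 23 proteins that bind single-stranded DNA or other nucleic acids 10 were higher and 13 lower, with a median of -0.02. PSPC1, an RNA-binding protein of paraspeckles, was the member with an unadjusted P under 0.05 (2.19% of all genes were lower at that P). It measured 8.45 and 8.53 with the ODNs against 8.86 and 8.77 with M and U. Of 31 genes of endocytosis and endosomal traffic 16 were higher and 15 lower, with a median of 0.02. CAV2, a caveolin, was the 1 with such a P, at 11.33 and 11.45 against 11.83 and 11.61, and set 1 was higher still (12.49 and 12.09). The signs of the medians of these 3 lists turned in at least 1 setting.

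Immediate early genes were divided in direction, with a slightly positive median against the set 2 arrays. On the list of AP-1 and immediate early genes 15 of 29 were higher and 14 lower, with a median of 0.07. Of the higher genes 2 had an unadjusted P under 0.05 (2.95% of all genes). The sides were apart upward in 12 and downward in 5 (21.6% and 20.3% of all genes). The median deviation was 0.06 and 0.05 with the ODNs and -0.05 in both M and U, while set 1 stood at 0.30 for M and 0.00 for U. KLF6 measured 8.85 and 8.76 with the ODNs against 7.96 and 7.95 with M and U, and DUSP1, a phosphatase that switches off MAP kinases, 10.60 and 10.31 against 9.55 and 9.44. In set 1 KLF6 stood at 9.19 and 8.40 and DUSP1 at 10.10 and 9.58, so that the M array of set 1 exceeded both ODN arrays for KLF6. On the list of the ATF4 arm of the stress response 26 of 41 were higher, with a median of 0.06 and the sides apart upward in 13 and downward in 2. ATF4 itself measured 11.85 and 11.96 against 11.57 and 11.58, a difference of 0.33 (limma, adjusted P = 0.881), and the M array of set 1 lay above both ODN arrays (12.11). CHAC1, an ATF4 target that degrades glutathione and the gene on which the study centres, varied within both sides: 4.87 with ODN 2006, 5.45 with its control, 5.94 with M and 4.26 with U. The difference of 0.06 was smaller than the spread, with P = 1 in an exact two-sided permutation test, for which 0.333 is the smallest P that 2 against 2 arrays allow. Folding and degradation genes of the endoplasmic reticulum split 7 higher to 18 lower, with no unadjusted P under 0.05. The sign of the median turned in at least 1 setting for each of these 3 lists.

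Against the set 2 arrays, NRF2 and antioxidant targets lay slightly higher with ODN (20 of 24 genes, median 0.11) and heat shock proteins slightly lower (14 of 20 genes, median -0.10). The median deviation of the NRF2 list was 0.03 and 0.06 with the ODNs, but 0.08 for M and -0.04 for U of set 1. For heat shock proteins it was -0.03 and -0.05 with the ODNs, and 0.32 and 0.24 in set 1. The sides were apart upward in 13 and downward in 0 of the NRF2 genes, and apart upward in 3 and downward in 11 of the heat shock genes (over all genes 21.6% and 20.3%). Both medians kept their sign in every setting tried, but no gene of either list had an unadjusted P under 0.05, and the differences did not exceed 0.37 in size.

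Genes of DNA replication lay slightly lower with ODN than with the set 2 arrays. Of 35 tested 27 were lower, with a median of -0.11, and the sides were apart downward in 18 and upward in 3 (20.3% and 21.6% of all genes). In set 1 the median deviation (-0.22 for M and -0.07 for U) lay on the ODN side (-0.07 and -0.06), away from M and U of set 2 (0.02 and 0.06). Here too the sign held in every setting tried. MCM10, which loads the replication machinery, was the 1 member with an unadjusted P under 0.05 (2.19% of all genes were lower at that P). It measured 8.56 and 8.61 with the ODNs against 8.96 and 8.95 with M and U. Its set 1 values of 8.43 and 8.52 lay on the ODN side. Of 33 mitosis genes 20 were higher and 13 lower, with a median of 0.01 and no unadjusted P under 0.05, and the p53 list was divided 15 to 10. Both medians were above 0 in 9 of 12 settings, and their sign turned, among others, when set 1 was joined to set 2 and without the M array. TP53INP1 had a difference of 1.03 but was near or below 5 in all arrays (4.41 and 5.08 against 3.69 and 3.73). GADD45B, a stress-response gene of the same list, measured 8.96 and 8.98 against 8.55 and 8.10, with set 1 above the ODN arrays (9.57 and 9.08).

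Of 25 genes of TGF-beta signalling 7 were higher and 18 lower with ODN, with a median of -0.02 that turned positive under housekeeping centring. SMAD6, an inhibitor of BMP signalling, was lower by 0.29 and LTBP3, which binds latent TGF-beta, was higher by 0.29. Both had the sides apart and an unadjusted P under 0.05 (over all genes 2.19% were lower and 2.95% higher at that P). No gene had such a P in the lists of hypoxia and glycolysis, metallothioneins and zinc transport, apoptosis, lysosome and autophagy, ERBB receptors, ribosomal proteins and the respiratory chain, whose medians lay between -0.08 and 0.04.

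Markers of cell identity were compared because the lists above contain matrix genes. Of 33 epithelial genes tested 19 were higher and 14 lower with ODN, with a median of 0.05 that turned negative when set 1 was joined to set 2. The sides were apart upward in 12 and downward in 0 (21.6% and 20.3% of all genes). ELF3, an epithelial transcription factor, measured 10.57 and 10.88 against 10.31 and 10.29. Of 32 mesenchymal genes 9 were higher and 23 lower, with a median of -0.05 that turned positive under housekeeping centring, but most were dim in BT-20 and tested because of their level in Hs578T. Of the 8 with a mean of 5 or above in BT-20, 3 were higher and 5 lower, and FN1 and TAGLN had an unadjusted P under 0.05, both lower with ODN (1.92% of all genes at that level). TAGLN, an actin-binding protein, measured 9.93 and 9.70 with the ODNs against 10.36 and 10.25, with set 1 at 9.81 and 10.34. The summed level of the 10 mesenchymal markers, on the log2 scale, was 10.44 and 10.65 with the ODNs, 11.20 in both M and U, and 12.43 and 12.91 in set 1, and CDH11 and COL6A3, which define the other line, stayed between 2.13 and 2.37. FN1 made up most of that sum.

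**Figure D4:**
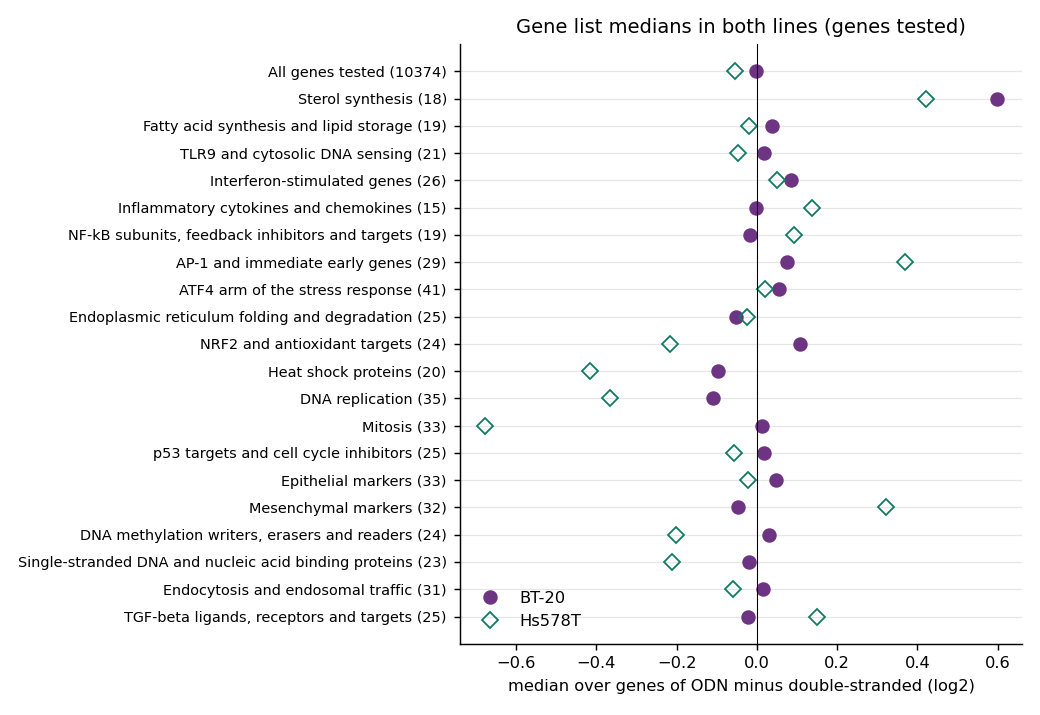
The median over the tested genes of each list of the ODN minus double-stranded difference (log2) is shown for BT-20 (filled circles) and Hs578T (open diamonds), with the number of genes tested in brackets. Among the lists plotted, sterol synthesis has the highest median in BT-20, at 0.60, and is also at 0.42 in Hs578T. Mitosis, at -0.68 in Hs578T, is at 0.01 in BT-20.

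The same treatments in Hs578T gave larger differences. In the same fit 941 genes (9.07%) passed an adjusted P of 0.05 there, a count that ran from 134 without ODN 2006 to 1566 without U of Hs578T when single arrays were left out, and was 162 without M or U of BT-20. Arrays of 1 side also lay further apart in Hs578T (medians of 0.18 and 0.21). There the median absolute difference was 0.24 in Hs578T and 0.10 in BT-20. A test of the difference between the lines, which carries the spread of both, called 28 genes (0.27%; between 7 and 170 when single arrays were left out), 7 in which the BT-20 difference was the more positive and 21 the more negative. Of the 28, 20 were under 5 in all 4 BT-20 arrays and so were tested only because of their level in Hs578T. With 5 or above required in 4 arrays, 1 gene passed. Over genes the 2 sets of differences had a Pearson correlation of 0.20 (Spearman 0.20, 10374 genes, which are not independent replicates). Some transcripts that were high only with ODN in Hs578T were at the floor in BT-20 with every oligonucleotide. FOXL1, a forkhead transcription factor, measured 8.25 and 8.08 with the ODNs in Hs578T against 3.05 and 3.06 with M and U, and between 3.04 and 3.06 in the 4 BT-20 arrays. GP5, a platelet glycoprotein, behaved alike, with 6.64 and 6.89 against 2.39 and 2.41 in Hs578T and 2.38 to 2.42 in BT-20. Both genes reached 5 in the Hs578T ODN arrays alone, through which they entered the test, so these values are given as a description.

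A few genes were shared. LOC100996756 had differences of 4.33 in BT-20 and 6.06 in Hs578T, and in both lines the value with ODN 2006 exceeded that with the control by more than 2. GCNA (1.64 and 2.83), RASSF1 (1.03 and 1.56), CHD2 (1.23 and 1.12) and MIR570HG (0.89 and 1.03) were higher with ODN in both, and passed an adjusted P of 0.05 in Hs578T. For none of these 5 did the difference between the lines pass the test. CAB39L, VWA5A and MOB3B lay on opposite sides, 0.63, 0.48 and 0.37 higher with ODN in BT-20 and 1.17, 1.71 and 1.21 lower in Hs578T, and did pass it (adjusted P = 0.0231, 0.023 and 0.0266 by limma). CAB39L passed in 6 of 17 alternatives, VWA5A in 9 of 18 and MOB3B in 6 of 17, and all 3 missed it with 5 or above required in 4 arrays (adjusted P = 0.0589 by limma). In Hs578T the ODN values of all 3 genes were dim (3.63 to 4.04), and M and U lay between 4.96 and 5.67. With values under 5 raised to 5 none of the 3 passed. For MOB3B the Hs578T set 1 values (3.04 and 3.50) lay below its ODN values there (3.82 and 3.77). Its BT-20 difference was -0.21 once set 1 was joined to set 2.

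Among sterol genes 15 of 18 were higher with ODN in Hs578T, where 2 passed (MVK at 1.18 and HSD17B7 at 0.78). Over all 10374 genes tested, 4453 were higher there and 404 of these passed. The HSD17B7 probe set is of the type that Affymetrix marks as possibly matching other transcripts. INSIG1 differed by 2.00 in BT-20 and 0.61 in Hs578T, DHCR7 by 1.25 and 0.65, HMGCS1 by 1.04 and 0.69, and IDI1 by 1.06 and -0.11. The difference between the lines had an adjusted P above 0.05 for all 18 and an unadjusted P under 0.05 for 4, against 16% of all genes. INSIG1 started from a higher level in Hs578T (11.37 and 11.22 with M and U). ABCA1 was level in Hs578T (7.74 and 7.77 with the ODNs, 7.79 and 7.80 with M and U), and its difference between the lines had an adjusted P of 0.071 by limma. For RNF43 that P was 0.0663, and its difference in Hs578T was -0.02.

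**Figure D5:**
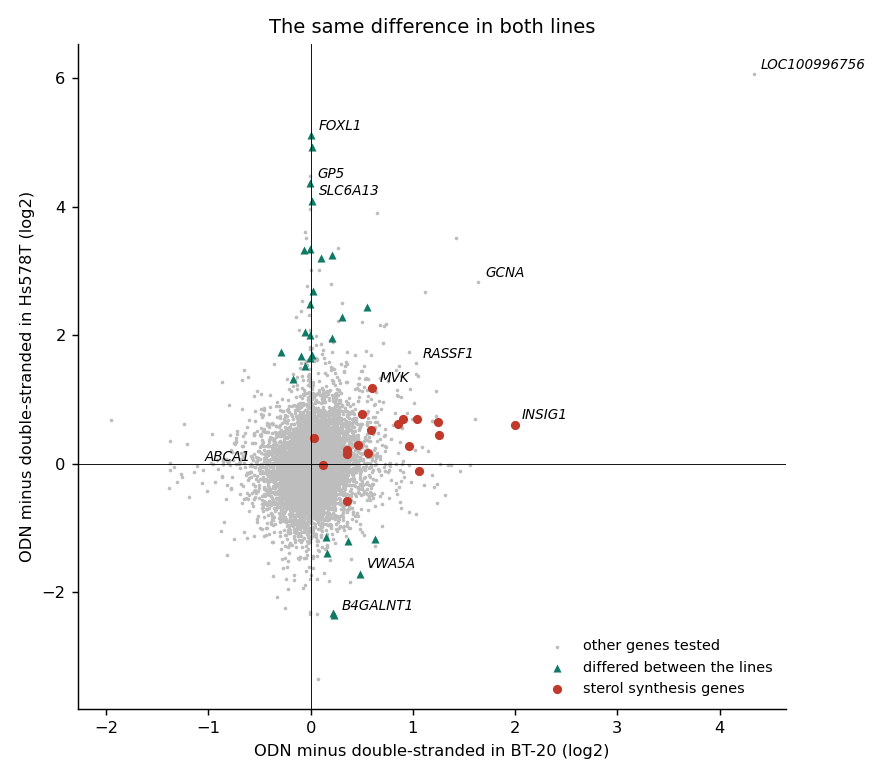
Each point is a gene tested, with its ODN minus double-stranded difference (log2) in BT-20 on the horizontal axis and in Hs578T on the vertical axis. Green triangles are the 28 genes whose difference differed between the lines at an adjusted P under 0.05, most of them on the vertical axis near 0 in BT-20. Red circles are the 18 sterol synthesis genes, to the right of 0 in BT-20, 15 of them also above 0 in Hs578T.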

How the data were processed

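Total RNA of BT-20 and Hs578T cultures was labelled and hybridised to HG-U133 Plus 2.0 arrays. Per the submitters' processing notes, the authors summarised the probes with GCRMA in R 2.4, and the deposited values are log2 intensities of 54675 probe sets. Whether all 12 arrays were normalised together is not given in the sources used here. Array batch was read from the array names in the labels, and the 8 arrays tested here share 1 batch.

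Probe sets were named from the platform annotation: 41097 list 1 gene, 1801 several and 11777 none. Symbols were updated by gene ID for 41043, and 54 kept theirs. Each of 19775 genes was represented by its probe set of highest mean. Genes at 5 or above in at least 2 of 8 arrays entered 1 linear model of the means of line by kind of oligonucleotide (limma 3.58.1, R 4.3.3, eBayes, 4 residual degrees of freedom), with Benjamini-Hochberg adjustment and a threshold of 0.05. The lone-array treatments were joined within each side, except in the fit with set as a block, where each oligonucleotide was its own group. CHAC1 was also compared by an exact permutation test.

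The set number pairs the M and U arrays, since set marks a shared array batch, and in BT-20 their deviations from the treatment means correlated at 0.58 over 10374 genes. The ODN arrays have no set number in the labels and were put with set 2, whose batch they share, for the fit with set as a block.

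The arrays, the gene lists and the rules were chosen with earlier results of these data known. Genes were named by this rule: the 12 in each direction with the smallest P, the 12 with the largest difference among genes with the sides apart (both with at least 5 on the higher side), up to 6 members of each list with the smallest P, DNA sensors and methyltransferases whatever their values, genes of the study's labels and text, genes of earlier ODN results in Hs578T, and cell type markers. Chosen after values were seen were the sterol genes beyond 6, and genes whose difference differed between the lines or passed in an alternative. So were the LXR targets, SREBF1, SCAP, FASN, ACACA, IFNB1 and CXCL10.

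Tested on simulated data with the same 10374 genes, the fit recovered 73% of genes changed by 1 and 99% of those changed by 2 on the log2 scale in the BT-20 comparison, and 23% and 83% for the difference between the lines. The simulated noise was normal and independent, at the spread estimated by the fit, with 100 genes changed per size in the BT-20 ODN arrays. Real arrays may vary otherwise, so these rates do not show how many changed genes the main test missed. Promoter windows (250 bases before to 50 after the start) are from RefSeq, GRCh38.p14. The sequence of the double-stranded oligonucleotide and results for genes without a named probe set are not reported here. Counts over genes with a mean of 5 or above in the BT-20 arrays were added after the data were seen. Alternatives covered the arrays in the fit, the block, moderation, filters, centring, normalization, dim values, probe sets per gene and leaving out each array.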

Additional observations from a re-analysis of the deposited data

Results flagged for a closer look

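The ODN minus double-stranded difference differed between BT-20 and Hs578T in 28 genes by the limma test of that difference. Of those named above, FOXL1 and GP5 had differences smaller in BT-20 than in Hs578T by 5.11 and 4.38 on the log2 scale (BT-20 minus Hs578T, -5.11 and -4.38), being at the floor in BT-20 with every oligonucleotide and tested only through their level in the Hs578T ODN arrays. CAB39L, MOB3B and VWA5A lay higher with ODN in BT-20 and lower in Hs578T, where their ODN values were dim. The BT-20 difference exceeded that in Hs578T by 1.79, 1.58 and 2.20. All 3 missed the threshold with 5 or above required in 4 arrays, and with values under 5 raised to 5.

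Outside the gene table, 1 probe set with no gene listed, 241903_at, passed the threshold in BT-20 when all 21180 probe sets were tested. It measured 6.03 with ODN 2006 and 6.16 with its control, against 4.37 with M and 4.29 with U, a difference of 1.76 ± 0.11 (SE; limma, adjusted P = 0.0263). Set 1 stood at 3.56 and 5.07, and all Hs578T arrays lay between 3.32 and 3.51.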

How the results depend on the processing

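The median of the sterol synthesis genes was above 0 in all 13 settings, from 0.50 without ODN 2006 CTL to 0.71 without ODN 2006, both further from 0.60 than the spread within sides. The number of BT-20 genes past an adjusted P of 0.05, 0 in the fit of 8 arrays, was 2 over 12 arrays with set 1 as its own group (RNF43 and INSIG1), 8 with both sets joined, 2 with set as a replicate block (a fit with 2 residual degrees of freedom, in which the ODN arms of 1 array each give no spread), 4 without a filter, 1 over all probe sets, and 0 to 4 when single arrays were left out (4 without ODN 2006 CTL, where 1 ODN array is assumed to vary like the others). At an unadjusted P under 0.05, 533 genes became 1054 with BT-20 alone, 906 with both sets joined, 959 without a filter and 1129 over all probe sets. The count fell to 456 with trended and robust moderation and to 411 of 8890 genes with the mean of probe sets. It was also lower in each fit without 1 BT-20 array, and higher in each without 1 Hs578T array. The count for the difference between the lines, 28, was 75 over 12 arrays, 140 with both sets joined, 60 with the replicate block, 67 without a filter, 1 with 5 or above required in 4 arrays, 45 with housekeeping centring, 58 with dim values raised to 5, 101 over all probe sets, and 7 (without M or U of BT-20) to 170 (without ODN 2006 CTL of Hs578T). It was also 155 without U and 16 without ODN 2006 of Hs578T, and 10 without ODN 2006 of BT-20.

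Of the 2-fold counts (33 higher, 15 lower), 56 and 32 were found with both sets joined, 21 and 2 with dim values raised to 5, 18 and 7 with the mean of probe sets, 103 and 25 over all probe sets, and 151 and 204 against set 1 alone, an alternative chosen after seeing the data that crosses batches. The lower count was 9 with 5 or above in 4 arrays. Leaving out single arrays gave 42 to 66 higher and 26 to 58 lower genes, since 1 array overlaps less easily than 2; the extremes were without ODN 2006 for the higher and without ODN 2006 CTL for the lower genes.

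CHAC1 changed sign with both sets joined (-0.41) and with dim values raised to 5 (-0.24), and ran from -0.78 without U to 0.90 without M. Of 1483 values of 79 other named genes under alternatives, 14 changed sign and 13 newly passed the threshold, TMA16 among them in a fit with 1 ODN array. No call could be lost, since the main fit made none. With both sets joined the sign changes were AIM2 at 0.81, GBP1 at -0.21, MOB3B at -0.21 and MYD88 at 0.19. Under housekeeping centring AIM2 was at 0.041, GP5 at 0.070 and MYD88 at 0.020, and with the mean of probe sets EBP was at -0.010 and IFI16 at -0.20. With single arrays left out AIM2 ran from -0.87 to 0.79, STING1 from -0.26 to 0.59, FOXL1 from -0.0045 to 0.016 and GP5 from -0.026 to 0.010. The causes were not tested. Levels near the floor limit what can be read, since a dim value can understate, hide or inflate a difference.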
